A study of Zea mays with 6 samples.

Results

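The 150 genes described here were the abundant genes of the maize F1 hybrid B73×Mo17 that carried the strongest N6-methyladenosine (m6A) enrichment. A gene was eligible when its identifier began with Zm00001d and its mRNA abundance was at least 10 FPKM (fragments per kilobase of transcript, scaled to the mapped fragments of the library) in both input libraries. For each of 5572 eligible genes, called abundant genes below, the fold enrichment of the strongest m6A peak overlapping the gene span was read in each replicate, and the genes were ranked by the lower of the 2 values. The 150 highest were kept and are called strongly enriched genes below. They were 150 of the 2971 abundant genes with a peak in both replicates, and of 43789 Zm00001d genes listed in all. Both the fold enrichment and the mRNA abundance chose the genes, so both are given as a description without a test.

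The libraries analysed here come from the F1 hybrid of the inbred lines B73 and Mo17, whose seedlings were grown under 1 light and temperature regime without any treatment and taken at 14 days. All 6 libraries shared that genotype and age, and they fell into 3 groups of 2 biological replicates. The input libraries (BM_CK) measured mRNA from polyadenylated RNA, the m6A libraries (BM_IP) measured RNA fragments pulled down with an antibody against m6A, and the polysome libraries (BM_PP) measured RNA bound to several ribosomes. The labels name seedlings and the study's methods aerial tissue, and the identity of the tissue could not be checked against marker genes because no identifier in the files carried a gene name.

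m6A is the most common internal modification of eukaryotic mRNA. A methyltransferase complex writes it, proteins with a YTH domain bind it, and demethylases of the ALKBH family can remove it. In plants, as in animals, the mark lies mainly around the stop codon and in the 3′ untranslated region, and in Arabidopsis it is needed for embryo and shoot development. In m6A-seq, the fold enrichment of a peak is the signal of the pulled-down fragments over a background estimated from the input RNA. It reports relative enrichment and not the share of transcripts that carry the mark. Some genes shared exactly the same value, such as 11.3084 in replicate 1 for Zm00001d023738, Zm00001d041036 and Zm00001d049038. The background therefore need not be the input measured at the peak itself. Genes are given by identifier only, without gene names or roles, and the genes of the m6A machinery could not be listed for the same reason.

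The fold enrichments were similar in both replicates. The strongest peak of a strongly enriched gene had a median fold enrichment of 10.3 in replicate 1 (range 8.34 to 28.3) and of 10.9 in replicate 2 (8.35 to 26.9). Among the 2821 other abundant genes with peaks the median was 4.27 in each replicate. In 141 of the 150 genes (94%) the 2 values lay within 1.5 times of each other, and replicate 2 was the higher in 90 genes. Both values had to be high for a gene to be kept, so part of this agreement follows from the selection. Within the 150 genes the order was less stable, and Spearman's rho between the replicates was 0.36 across genes, which are not independent replicates. Over all 2971 abundant genes with peaks, where the range of values is wider, rho was 0.75. The threshold fell in a dense region of the ranking. Zm00001d031967, last but one in rank, had fold enrichments of 8.35 and 9.37, and Zm00001d052282 at rank 150 had 8.34 and 8.61. Just outside, Zm00001d042191 had 10.4 and 8.30, and Zm00001d004960 had 8.29 and 8.29. At the abundance floor, the included Zm00001d034561 had 10.03 and 12.5 FPKM of mRNA, whereas the left-out Zm00001d033750 had 9.98 and 10.3 FPKM.

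**Figure D1:**
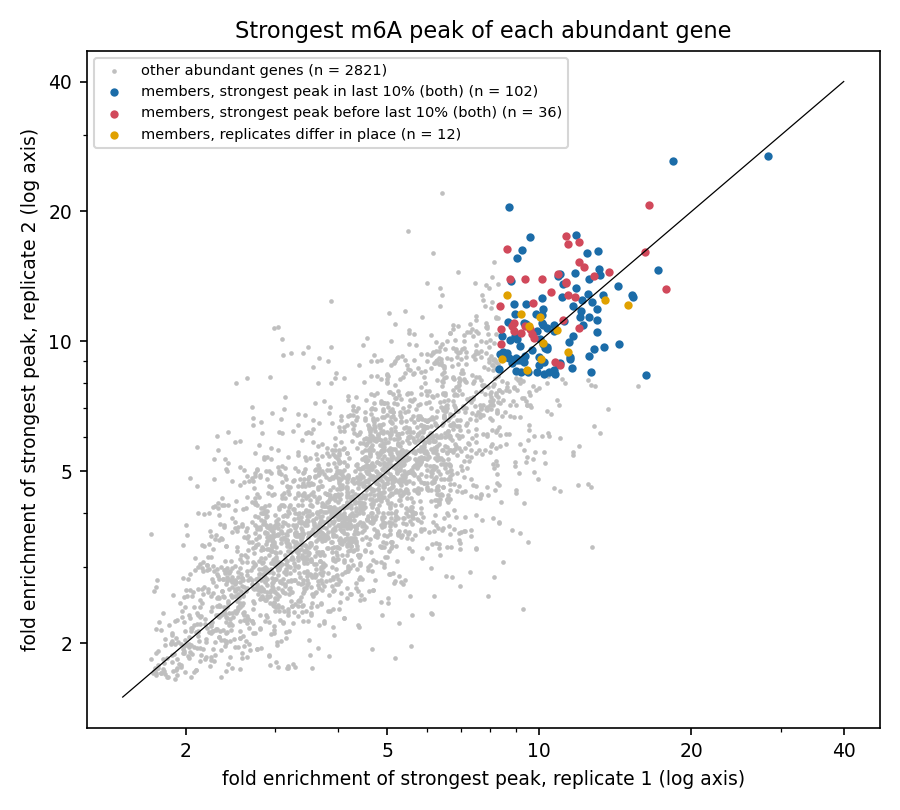
Fold enrichment of the strongest m6A peak of each abundant gene in replicate 1 (x axis) and replicate 2 (y axis), both on log axes, with 1 point per gene and the line of equal values. The 150 strongly enriched genes (members, coloured by the place of that peak in the 2 replicates) lie above 8.33 in both replicates by their selection, and Zm00001d008559 stands highest at 28.3 and 26.9.

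The gene at the top of the ranking was Zm00001d008559 (chr8:12962024-12970253, plus strand, B73 RefGen_v4), with fold enrichments of 28.3 and 26.9. Its strongest summit lay 290 bp from the annotated 3′ end in replicate 1 and 278 bp in replicate 2, and 3 peaks overlapped the gene in each replicate. The gene measured 12.1 and 11.7 FPKM of mRNA and 32.1 and 35.8 FPKM in polysomes. Both polysome values lay above both mRNA values.

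Next in rank was Zm00001d001880 (chr2:2260663-2262908), whose fold enrichments of 18.3 and 26.2 were less alike than those of the first gene. Its single peak had a summit 150 and 147 bp from the 3′ end. The genes at ranks 3 and 4 differed in place from both. Zm00001d041880 (chr3:142132876-142197276) had fold enrichments of 16.5 and 20.7 at a summit 20953 and 20966 bp from the 3′ end, about 67.5% of the way along a gene of 64401 bp. Zm00001d045635 (chr9:30190972-30217757) had 16.2 and 16.1 at a summit 10865 and 10882 bp from the 3′ end. Of the first 10 genes, 6 had the strongest summit near the 3′ end and 4 within the gene body, the other 2 of the latter being Zm00001d010152 (13.7 and 14.5) and Zm00001d052735 (17.8 and 13.2).

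The strongest peak of these genes lay either close to the 3′ end or far inside the gene. Places are given along the annotated gene span, introns included, since no annotation of exons or untranslated regions was used. The summit lay in the last 10% of the gene in 111 of the 150 genes (74%) in replicate 1 and in 105 (70%) in replicate 2. Among the other abundant genes with peaks these shares were 83.8% and 80.9%. The summit lay inside the gene and within 500 bp of its 3′ end in 72% and 68% of the strongly enriched genes, against 89.9% and 87.4% of the others. In contrast, it lay in the first 50% of the gene in 24 (16%) and 25 (16.7%) strongly enriched genes, against 3.54% and 4.61% of the others. These values come from the same peak calls that chose the genes and are descriptions.

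**Figure D2:**
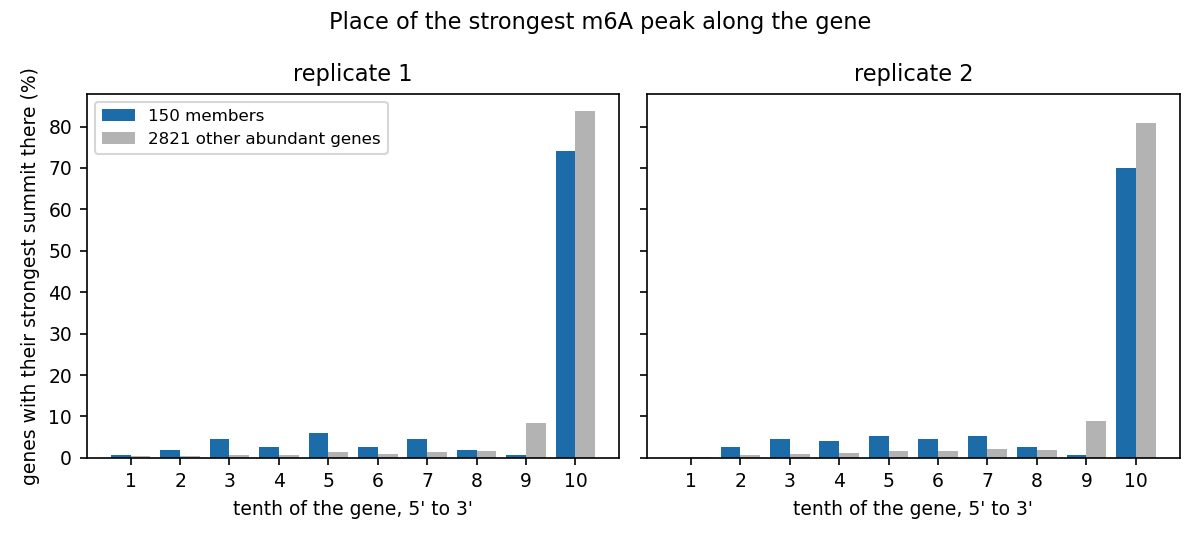
Share of genes (y axis, %) whose strongest m6A summit lay in each 10% of the gene from the 5′ to the 3′ end (x axis), for the 150 strongly enriched genes (members) and the 2821 other abundant genes in each replicate. Summits beyond the annotated gene ends are counted in the outermost bins. The last bin holds 74% and 70% of the strongly enriched genes, and most of the rest are spread from the second to the eighth bin.

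Sorted by the place of the strongest summit, 102 genes had it in the last 10% in both replicates (3′-end genes), 36 had it before that in both (gene-body genes), and in 12 the replicates differed. This grouping was chosen after the places had been seen. In the 3′-end genes the summit lay a median of 124.5 bp from the annotated 3′ end in replicate 1 and 123.5 bp in replicate 2, and the same summit was found again within 50 bp in 100 of the 102 genes. Zm00001d026608 (chr10:148913230-148914804) was the 1 gene with its summit beyond the annotated end, by 50 bp and 31 bp, and that peak also overlapped the neighbouring entry Zm00001d026609. In the gene-body genes the summit lay a median of 8964.5 and 9424.5 bp from the 3′ end and was found again within 50 bp in 20 of the 36. In 11 of them the 2 summits were over 1 kb apart. Taking the replicate with the summit nearer to the 3′ end, the 3 genes with the farthest summits were Zm00001d028915 (62008 and 55240 bp from the 3′ end), Zm00001d030266 (58303 and 32855 bp) and Zm00001d049894 (33771 and 32150 bp). In each of these the 2 replicates placed the strongest summit over 1 kb apart.

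Of the 12 genes whose replicates differed, 11 had a peak at both places in replicate 1 and all 12 did in replicate 2. Where both were present, the median fold enrichment was 10.03 in the last 10% and 8.62 before it in replicate 1, and 8.67 and 10.7 in replicate 2. The weaker of the peaks could be much lower, as in Zm00001d045938 with 3.95 at the end and 9.92 before it in replicate 2. By contrast, Zm00001d014445 had its strongest summit at 99.4% of the gene in replicate 1 (fold enrichment 13.5) and at 12.2% in replicate 2 (12.5). In these 12 genes the summits were between 1064 and 28855 bp apart.

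The gene-body genes were long. The strongly enriched genes had a median span of 7538 bp (range 1442 to 83747 bp), against 4162 bp among the other abundant genes with peaks, and 43 of them (28.7%) were over 15 kb against 4.11% of the others. The 3′-end genes had a median span of 5585.5 bp and the gene-body genes one of 18135.5 bp. None of the gene-body genes was shorter than 5757 bp. The shortest gene of all was Zm00001d043217 (chr3:192241636-192243077, 1442 bp), a 3′-end gene with fold enrichments of 9.17 and 9.74, and the longest was Zm00001d028915 (chr1:51076671-51160417, 83747 bp), a gene-body gene with 9.39 and 10.9. In the other abundant genes, a summit before the last 10% was mostly still close to the end. The 422 such genes had a median span of 3291 bp, and their strongest summit lay a median of 503.5 bp from the 3′ end in replicate 1.

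A single peak was the commonest pattern, and a minority of genes carried very many. In replicate 1, 86 strongly enriched genes (57.3%) had 1 peak, and in replicate 2 it was 72 (48%), against 91.2% and 82.3% of the other abundant genes with peaks. At least 5 peaks were called in 32 and 47 strongly enriched genes, and in 13 and 79 of the 2821 others. At least 10 peaks were called in 11 and 32 of them, and in 0 and 20 of the others. The rule takes the highest of all peaks of a gene, so genes with more peaks had more chances to enter. Gene span was not held in these counts, which are a description. Together the 150 genes held 469 peaks in replicate 1 and 815 in replicate 2, or 12.7% and 16.1% of all peaks in abundant genes. The 2 libraries differed in how much was called, with 17371 peaks in replicate 1 and 30378 in replicate 2. Of the 469 peaks in replicate 1, 98.3% overlapped a peak of replicate 2, whereas 53.6% of the 815 peaks in replicate 2 overlapped one of replicate 1.

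The peak numbers followed the places. The 3′-end genes had a median of 1 peak in each replicate (maximum 8 and 13), and the gene-body genes a median of 6 and 12 (maximum 30 and 47). Across the 150 genes, Spearman's rho between span and number of peaks was 0.74 in replicate 1 and 0.82 in replicate 2, given as a description across genes that share libraries. The corresponding values over all 2971 abundant genes with peaks were 0.33 and 0.41.

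**Figure D3:**
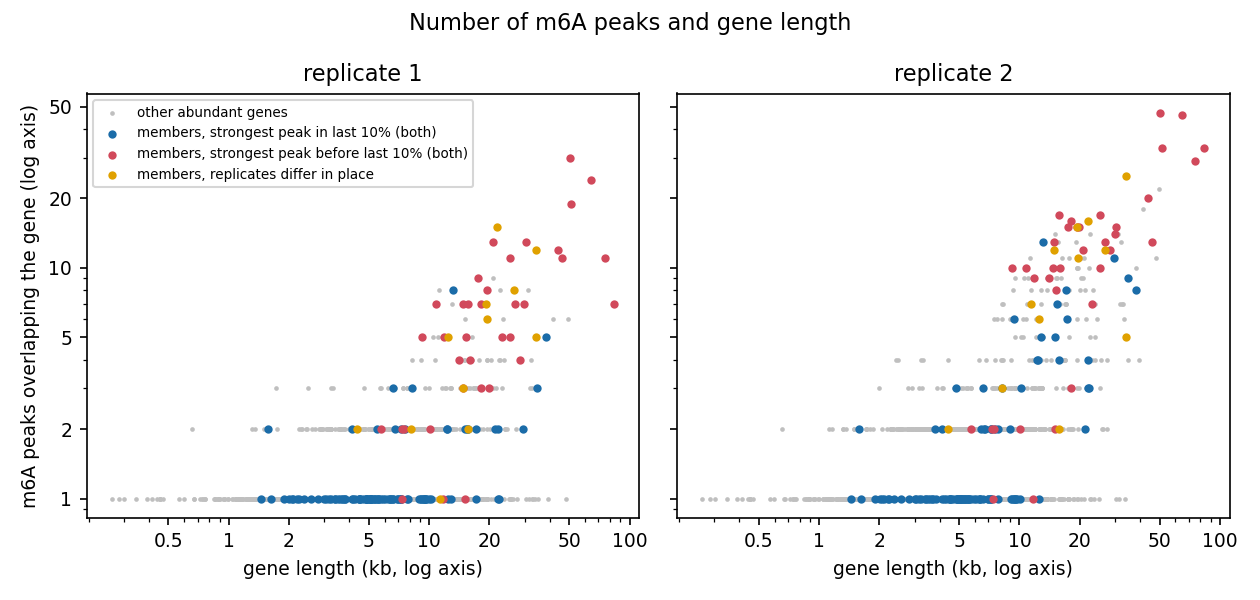
Number of m6A peaks overlapping a gene (y axis, log scale) against its span (x axis, kb, log scale) in each replicate, with 1 point per abundant gene with peaks and colours for the place of the strongest peak among the 150 strongly enriched genes (members). The gene-body genes reach 30 peaks in replicate 1 and 47 in replicate 2, at spans over 50 kb.

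The gene with the most peaks was Zm00001d030282 (chr1:118828597-118879142, minus strand), with 30 and 47. Its peaks had fold enrichments from 2.05 to 12.0 (median 6.69) in replicate 1 and from 1.88 to 15.3 (median 6.92) in replicate 2, and they covered 15% and 24% of the gene. They spread from about 15.7% of the gene in replicate 1 and 13.9% in replicate 2 to 97.6% and 97.5%. Zm00001d041880 had 24 and 46 peaks covering 7.75% and 15.4% of the gene, with medians of 6.01 and 6.99. Zm00001d037401 (chr6:124532947-124584221, minus strand) had 19 and 33 peaks covering 10.2% and 15.7%, and none of them lay in the last 10% of the gene. Peaks with a fold enrichment of at least 8 numbered 7 and 15 in Zm00001d030282, 7 and 15 in Zm00001d041880, and 3 and 11 in Zm00001d037401. In all 3 genes replicate 2 had more peaks than replicate 1.

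Over the 36 gene-body genes, neighbouring summits were a median of 889 bp apart in replicate 1 and 606 bp in replicate 2, and peaks covered a median of 6.42% and 12.2% of the gene. The peaks were spread over most of the span. The first 10% held 5 of 267 peaks in replicate 1 and 14 of 493 in replicate 2, and the last 10% held 33 and 41. In each replicate 31 of the 36 genes also had a peak in the last 10%, and its median fold enrichment was 5.69 and 5.61, against 10.7 and 12.8 for the strongest peak before it. That the end peak is the weaker one follows from the grouping. Zm00001d045635, for example, had end peaks of 9.90 and 9.72 below body peaks of 16.2 and 16.1. The 5 gene-body genes without an end peak were Zm00001d006370, Zm00001d017026, Zm00001d028396, Zm00001d037401 and Zm00001d045948.

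The strongest peaks were also wide. In replicate 1 the median was 208.5 bp and in replicate 2 it was 230 bp, against 157 and 172 bp in the other abundant genes with peaks. In the 3′-end genes the medians were 202.5 and 219.5 bp, and no such peak was wider than 524 and 530 bp. In the gene-body genes the medians were 241 and 321.5 bp, with maxima of 2088 bp for Zm00001d037401 in replicate 1 and 1556 bp for Zm00001d023738 in replicate 2. The width of a body peak was not always alike between replicates. In Zm00001d013534 the strongest peak was 69 bp wide in replicate 1 and 552 bp in replicate 2, where it was a different peak. The widest strongest peak of all measured 2757 bp and belonged to Zm00001d034904 in replicate 1, whose replicates differed in place.

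The strongly enriched genes were among the less abundant of the abundant genes. Their median mRNA level was 13.8 FPKM (range 10.1 to 75.5), against 19.6 FPKM among the others with peaks, and 128 of them lay between 10 and 20 FPKM. Only 20 lay between 20 and 50 FPKM and 2 above that. Over all 2971 abundant genes with peaks, Spearman's rho between mean fold enrichment and mRNA level was −0.52, and within the 150 genes it was 0.00. Selection narrows the range of both values within the 150 genes, so the 2 coefficients are not comparable. The input libraries give the mRNA level and also enter the background of the fold enrichment. These are bulk samples, in which fewer cells with a transcript and less of it per cell cannot be told apart. The floor decided much of the list. Of the 11341 Zm00001d genes with a peak in both replicates, 3025 had a lower fold enrichment at or above that of rank 150, and 2875 of these were under 10 FPKM in at least 1 input library.

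The most abundant strongly enriched gene was Zm00001d043175 (chr3:190628817-190634540), with 71.2 and 79.7 FPKM of mRNA and fold enrichments of 10.2 and 8.403. It was followed by Zm00001d031429 (53.7 and 58.2 FPKM), Zm00001d036827 (47.2 and 49.9 FPKM), Zm00001d013534 (48.8 and 43.4 FPKM) and Zm00001d018575 (46.9 and 41.8 FPKM). Of these 5 genes Zm00001d036827 had the highest fold enrichments, 14.3 and 13.5, and ranked 7.

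The polysome libraries were not used to choose the genes. For each gene the mean polysome FPKM was divided by the mean mRNA FPKM, a ratio that the study calls translational efficiency. Its median over the 150 genes was 1.24 (1.15 from the replicate 1 libraries and 1.42 from replicate 2), close to the 1.20 (1.10 and 1.28) of the other abundant genes with peaks. For the 2601 abundant genes without a peak in both replicates it was 1.09. The range over the 150 genes was wide, from 0.13 to 5.35, and Spearman's rho between the ratios of the 2 replicates was 0.96 across genes. The mRNA level enters this ratio too, and it had a floor of 10 FPKM in every group named here.

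Polysome and mRNA FPKM were compared gene by gene with limma on log2(FPKM + 0.1), fitted over 19518 entries, and a gene was called at a Benjamini–Hochberg adjusted *P* of at most 0.01 and a fold change of at least 1.5. Of the 150 genes, 62 were higher in polysomes, 28 were lower and 60 were not called. The background over all entries tested was 21.1% higher and 22.2% lower, over all abundant genes 36.1% and 23.6%, and over the other abundant genes with peaks 36.7% and 21%. The strongly enriched genes, at 41.3% and 18.7%, were therefore near the other abundant genes with peaks. The split depended on the scaling of the libraries. Centring each library on its median gave 70 higher and 22 lower, where 26.8% of all entries were higher and 17.2% lower. Leaving out the non-coding ENSRNA entries and rescaling gave 31 higher and 60 lower, with the median of all entries moved by −0.65 on the log2 scale. Under that rescaling 9.33% of all entries were higher and 45.1% lower. The lower calls fell to 13 (8.67%) without input replicate 1 and to 14 (9.33%) without input replicate 2, and those over all entries fell to 11.4% and 9.44%. With 1 library left out, the lone sample of its group is assumed to vary like the other group.

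The 2 places differed in their polysome values. The 102 3′-end genes had a median ratio of 1.65 (1.53 and 1.74 by replicate), and 51 of them were called higher and 15 lower. The 36 gene-body genes had a median of 0.81 (0.69 and 0.85), and 8 were called higher and 13 lower. Among the other abundant genes the background was 34.3% higher and 22.1% lower where the strongest peak lay in the last 10%, and 51.2% and 13.3% where it lay before. The medians on the log2 scale were 0.74 for the 3′-end genes and −0.32 for the gene-body genes. For the other abundant genes they were 0.16 with the strongest peak in the last 10% and 0.74 with it before. As given above, the latter were mostly much shorter than the gene-body genes and had their summit nearer to the 3′ end. They are therefore not a like group, and the comparisons below hold span, but only in wide classes within which it still varies. Centring gave 0.96 and −0.09 for the 2 groups of strongly enriched genes and rescaling gave 0.07 and −0.98, since each scaling moves all genes by nearly the same amount. The difference between the groups was not tested.

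Gene span moved with the ratio as well. Spearman's rho between span and ratio was −0.43 across the 150 genes and −0.45 across all 2971. Of the 39 strongly enriched genes of up to 5 kb, 24 were higher in polysomes and 4 lower, with a median ratio of 2.07, against 48% and 12.6% called and a median of 1.53 among the others of that span. Of the 68 genes of 5 to 15 kb, 30 were higher and 8 lower, with a median of 1.44, against 18.7% and 33.2% and a median of 0.81. Of the 43 genes over 15 kb, 8 were higher and 16 lower, with a median of 0.67, against 13.8% and 49.1% and a median of 0.57. Of the 3 classes, that of 5 to 15 kb had medians farthest apart.

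With place held, and span held only by class, the 52 3′-end genes of 5 to 15 kb had a median ratio of 1.49 (1.34 and 1.59 by replicate). The median was 0.77 (0.70 and 0.82) for 782 other abundant genes of the same place and span class. Limited to genes of 10 to 20 FPKM of mRNA, these medians were 1.29 (44 genes) and 0.75 (482 genes). For 3′-end genes of up to 5 kb the medians were 2.03 (38 genes) and 1.44 (1421 genes). Of the gene-body genes, the 24 over 15 kb had a median of 0.66, beside 0.73 for 40 others, and the 12 of 5 to 15 kb had a median of 1.29, beside 1.02 for 95 others. The quartiles of the compared groups overlapped in each case. For example, the 3′-end genes of 5 to 15 kb had quartiles of 0.76 and 2.32, and the others 0.50 and 1.303. Mean fold enrichment and ratio had a Spearman's rho of −0.04 across all 2971 abundant genes with peaks and of −0.003 across the 150. Within the 150 it was 0.22 across the 3′-end genes and −0.41 across the gene-body genes, with span and abundance not held. The parts of span, place and abundance in these ratios were not tested.

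**Figure D4:**
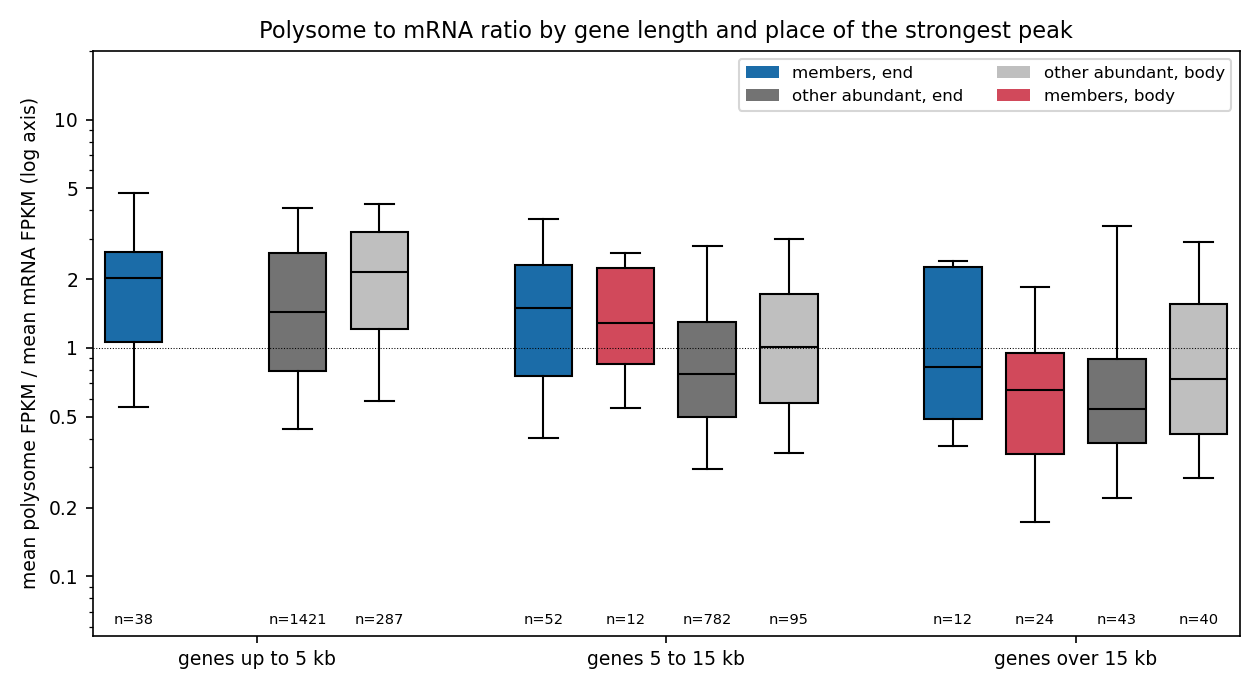
Mean polysome FPKM divided by mean mRNA FPKM (y axis, log scale) by gene span and place of the strongest peak, for the 150 strongly enriched genes (members) and the other abundant genes with peaks. Boxes show the quartiles with the median as a line, whiskers the 5th and 95th percentiles, n the number of genes, and genes whose replicates differed in place are left out. In the 5 to 15 kb class the strongly enriched 3′-end genes have a median of 1.49 and the others of that place 0.77, with overlapping boxes.

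The 5 genes with the highest called ratios were all 3′-end genes. Zm00001d026608 had 16.8 and 12.5 FPKM of mRNA and 82.8 and 73.8 FPKM in polysomes, a log2 fold change of 2.42 ± 0.18 (standard error) with a limma adjusted *P* of 0.00021. Its peak overlaps a neighbouring entry, as described above. Zm00001d048163 (chr9:151221532-151226884) had 11.5 and 11.5 FPKM of mRNA and 56.9 and 59.5 FPKM in polysomes. Zm00001d039299 (chr3:1290583-1292589) had 13.9 and 11.7 FPKM and 65.6 and 62.0 FPKM in polysomes. In all 3 genes both polysome values lay above both mRNA values.

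Zm00001d021958 (chr7:167117017-167124236) was more abundant, with 25.8 and 24.6 FPKM of mRNA and 122.8 and 123.6 FPKM in polysomes. Zm00001d016908 (chr5:179675631-179680148) had 14.0 and 13.3 FPKM and 68.3 and 61.8 FPKM in polysomes, with a log2 fold change of 2.24 ± 0.13 and a limma adjusted *P* of 0.00014. Zm00001d021958, Zm00001d016908, Zm00001d048163 and Zm00001d039299 had a single peak in each replicate, with the summit between 51 and 147 bp from the 3′ end.

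Of the 5 genes with the lowest called ratios, 4 were gene-body genes over 25 kb. Zm00001d023792 (chr10:20844614-20890419) had 20.3 and 24.6 FPKM of mRNA and 3.34 and 2.49 FPKM in polysomes, a log2 fold change of −2.91 ± 0.20 with a limma adjusted *P* of 0.00018. Zm00001d037401 had 10.99 and 10.6 FPKM of mRNA and 1.45 and 1.54 FPKM in polysomes, a log2 fold change of −2.78 ± 0.16. Zm00001d030266 (chr1:117619933-117695083) had 12.9 and 19.6 FPKM of mRNA, a wide gap between replicates, and 3.10 and 2.55 FPKM in polysomes. In all 3 the polysome values lay far under the mRNA values in both replicates.

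Zm00001d045635 had 15.04 and 14.0 FPKM of mRNA and 3.19 and 3.11 FPKM in polysomes, a log2 fold change of −2.17 ± 0.15. The fifth gene was Zm00001d052282 (chr4:185921084-185959323), the last in rank and a 3′-end gene of 38240 bp, with 10.9 and 11.3 FPKM of mRNA and 2.78 and 3.001 FPKM in polysomes. It had 5 and 8 peaks. Zm00001d041880 and Zm00001d030282, with the largest numbers of peaks, were also lower in polysomes, at log2 fold changes of −1.08 ± 0.14 and −1.25 ± 0.16 with limma adjusted *P* values of 0.0014 and 0.0013. Without input replicate 1, which leaves 1 input sample, the log2 fold changes were −1.02 and −1.12 and the calls were lost, with limma adjusted *P* values of 0.013 and 0.011.

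Gene-body genes were not all low. Zm00001d016458, of 19850 bp, had ratios of 3.67 and 3.41 from replicates 1 and 2. Zm00001d013534 (chr5:13763873-13782041), of 18169 bp and with 7 and 16 peaks, had 149.9 and 139.0 FPKM in polysomes against 48.8 and 43.4 FPKM of mRNA, a log2 fold change of 1.65 ± 0.12. Zm00001d031429, the most abundant and the shortest gene-body gene, had 156.3 and 155.9 FPKM in polysomes against 53.7 and 58.2 FPKM of mRNA. The last 2 genes were both among the 5 most abundant strongly enriched genes.

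Of the first 10 genes by rank, 5 were higher in polysomes, 2 were lower and 3 were not called. Over all abundant genes 36.1% were higher and 23.6% lower, and 10 genes are too few to set apart from those shares. Zm00001d008559 rose by 1.503 ± 0.13 on the log2 scale, with a limma adjusted *P* of 0.00036. Zm00001d049886 (chr4:50576947-50586364) had 17.0 and 14.4 FPKM of mRNA and 57.5 and 57.8 FPKM in polysomes, and Zm00001d033523 (chr1:265546924-265551800) had 12.4 and 13.5 FPKM and 32.5 and 31.4 FPKM. Their log2 fold changes were 1.88 ± 0.14 and 1.3 ± 0.13. Zm00001d001880 was called higher with 35.6 and 21.6 FPKM in polysomes against 12.6 and 11.03 FPKM of mRNA, a log2 fold change of 1.23 ± 0.25. Without input replicate 1, input replicate 2 or polysome replicate 1, which leaves 1 sample in that group, the log2 fold change was 1.32, 1.13 and 0.87 and the call was lost (limma adjusted *P* 0.019, 0.031 and 0.015). The 3 genes without a call were Zm00001d010152 (log2 fold change −0.24), Zm00001d036827 (−0.11) and Zm00001d052735 (0.49).

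**Figure D5:**
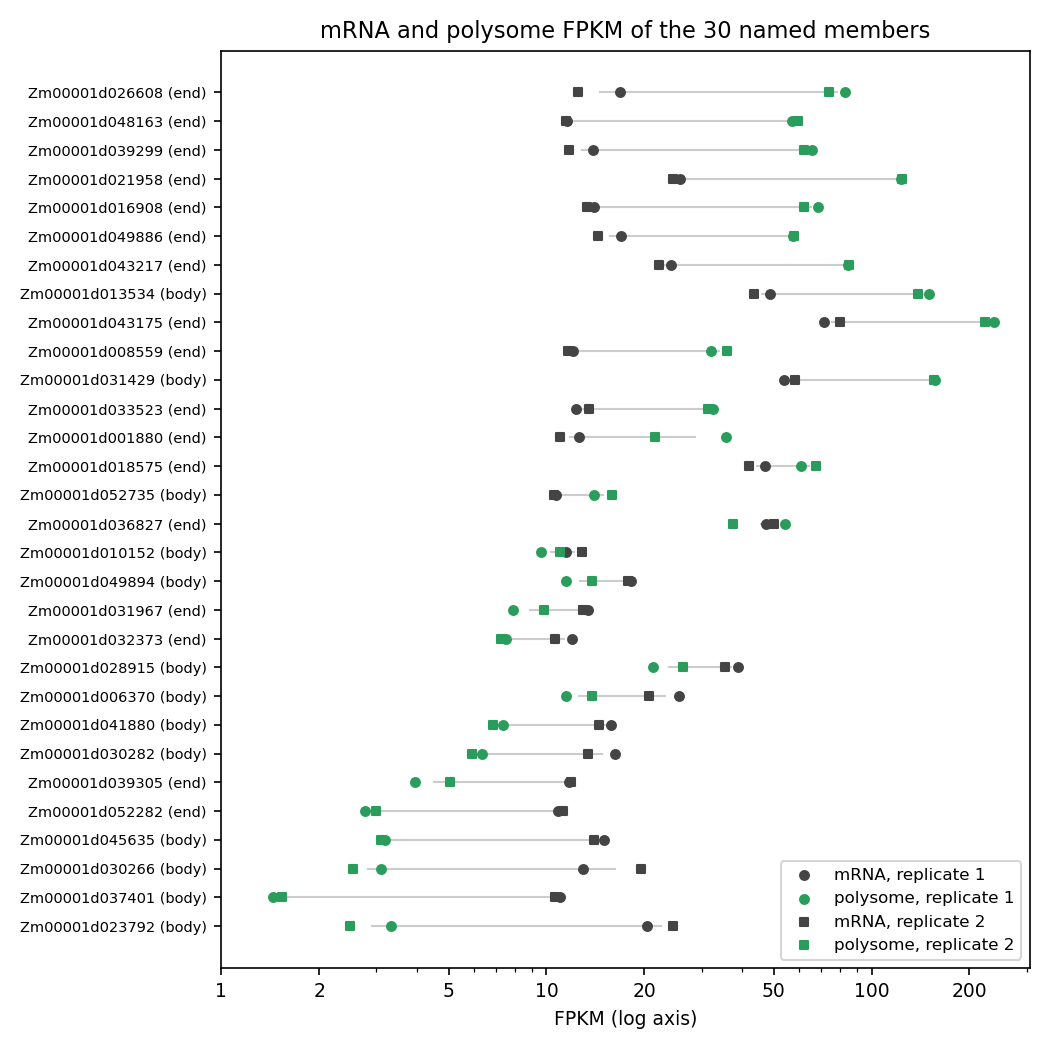
mRNA and polysome FPKM (x axis, log scale) of the 30 strongly enriched genes chosen by the naming rule, ordered by log2 fold change, with circles for replicate 1 and squares for replicate 2, a grey line joining the means, and the place of the strongest peak in parentheses. Zm00001d026608 is at the top with 82.8 and 73.8 FPKM in polysomes, and Zm00001d023792 is at the bottom with 3.34 and 2.49 FPKM.

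The 3 genes whose fold enrichments differed most between replicates entered on their lower value. Zm00001d032373 had 8.69 and 20.4 at summits 224 and 227 bp from the 3′ end. Zm00001d039305 had 16.3 and 8.35 at 52 and 54 bp, and Zm00001d006370 had 8.65 and 16.4 at 9583 and 9572 bp. In all 3 both replicates called the same summit and differed in its height. Zm00001d039305 was lower in polysomes (3.96 and 5.07 FPKM against 11.8 and 11.9 FPKM of mRNA, log2 fold change −1.38 ± 0.17). Zm00001d006370 was called lower at −0.86 ± 0.17 with a limma adjusted *P* of 0.0064, and with any 1 of the 4 libraries left out the log2 fold change was −1.02 to −0.71 and the call was lost (limma adjusted *P* 0.014 to 0.042).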

How the data were processed

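The processed files of 6 libraries of the hybrid were used. The authors trimmed reads with Trimmomatic 0.35, mapped them with HISAT2 2.1.0 to B73 RefGen_v4 and obtained the deposited FPKM of each gene from StringTie. The authors called m6A peaks with MACS2 at a q-value under 0.01 in each replicate against its input, and the deposited fold enrichment (a ratio) of each peak was used as given. The deposited peak files also hold −log10 P, −log10 q-values and a score, of which the −log10 q-value was used for 1 alternative. The files hold no counts, so depth is unknown and precision rests on 2 replicates.

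A peak belonged to a gene when it overlapped the span by at least 1 bp on either strand. The polysome libraries were set against the input libraries in limma 3.58.1 under R 4.3.3 (lmFit, eBayes with trend, no block), on log2(FPKM + 0.1) over entries with a mean of at least 1 FPKM, so fold changes are on that scale, and the step was tested on simulated data. Python 3.11.15 was used for the rest. Genes named were the first 10 by rank, the 5 highest and 5 lowest called, the 5 most abundant, the 3 with most peaks, with the least similar replicates and with the farthest summits, the longest, the shortest and those at the threshold; others were named after their values were seen. Members and lists were chosen with earlier results of these data known. Alternatives covered the pseudocount, the filter, the scaling, the floor, the ranking and each library left out. No identifier matched the annotation table (NAM assembly), so gene names and sequences are not used here.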

Additional observations from a re-analysis of the deposited data

How the results depend on the processing

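Leaving out the ENSRNA entries and rescaling moved the members called higher from 62 to 31, those called lower from 28 to 60, and the median ratio from 1.24 to 0.78. Leaving out 1 library gave 60 to 77 calls in all, 46 to 58 higher and 13 to 25 lower. Higher and lower calls also fell over all entries and over the other abundant genes with peaks in each of these fits. The fall was therefore not particular to the 150 genes. Their median log2 fold change was 0.20 to 0.44 in these fits and 0.31 with all libraries. For the other abundant genes with peaks it was 0.13 to 0.36 and 0.25. Ranking by 1 replicate kept 94 (without replicate 1) or 103 (without replicate 2) of the 150 genes. Ranking by the mean fold enrichment kept 120, and a floor of 5 or 20 FPKM kept 32 or 20. Replicate 2 gave 70% in the last 10% of the gene, a median of 2 peaks and a width of 230 bp, where replicate 1 gave 74%, 1 peak and 208.5 bp. Direction changed in Zm00001d036827 (−0.11 to 0.12 after centring, and −0.37 to 0.16 when 1 library was left out), Zm00001d052735 (0.49 to −0.18 after rescaling) and Zm00001d018575 (0.53 to −0.14 after rescaling), none of them called. The causes were not tested, apart from a floor or a ranking that uses fewer values. Among the values of named genes under alternatives, 330 kept direction and side of the threshold, 16 lost the call, 10 gained it and 4 changed direction.

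A replicate block gave 61 higher and 25 lower, where 19.9% of all entries were higher and 20.5% lower. The differences between replicates of the input and the polysome libraries correlated at 0.02 over 19518 entries. No entry-by-entry shift shared by replicate number was therefore seen, and a shift common to all entries would not show in this value. That value cannot settle whether libraries of the same number came from the same plants. A further pair of alternatives was chosen after seeing the data. Ranking by peaks in the last 10% alone kept 113 genes, among them all 102 3′-end genes and 4 of the 36 gene-body genes. This ranking had to keep the 3′-end genes, because their values stay the same under it and no other value can rise. Without the 6 genes whose strongest peak also overlapped another entry, 59 were higher and 28 lower. The background of that fit was unchanged, at 21.1% and 22.2% of all entries. With 2 replicates per group and no counts, a missing call does not show that polysome and mRNA levels were alike.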
